A study of Arabidopsis thaliana with 24 samples.

Results

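The transcripts of 4 Arabidopsis flavonoid genes, CHIL (AT5G05270), DFR (AT5G42800), UGT78D1 (AT1G30530) and UGT78D2 (AT5G17050), were followed in dark-grown seedlings as they were moved into light. Each gene was represented by 1 probe set that the platform annotation assigned to it alone, so the 4 genes correspond to 4 of the 22217 probe sets on the arrays. They were taken by name from that annotation. Whole seedlings of ecotype Col-0 were grown for 4 days in the dark at 22 °C, after 2 h of light that started germination, and were sampled in the dark (0 min) or after 30 or 120 min of white light at 120 µmol per square metre per second. The genotypes were wt and the mutants fc2, flu and fc1, which gives 12 groups of 2 arrays labelled as biological replicates. The sources used here do not give the alleles or the number of seedlings behind each array. All genotypes, wt included, had the same dark growth and germination light.

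Flavonoids are made from a phenylpropanoid precursor by chalcone synthase and chalcone isomerase, and the pathway then branches towards flavonols and towards anthocyanins. CHIL encodes a chalcone isomerase-like protein that has no isomerase activity of its own and raises the flow into the pathway. DFR encodes dihydroflavonol reductase, the entry step of the anthocyanin branch, and UGT78D1 and UGT78D2 encode glycosyltransferases that attach rhamnose and glucose, respectively, to the 3-position of flavonols, with UGT78D2 acting on anthocyanidins as well. In seedlings these pigments screen out ultraviolet light, and light switches on their synthesis during de-etiolation, the passage from dark growth to a green seedling. FC1 and FC2 encode ferrochelatases, which make haem in plastids, and FLU encodes a brake on tetrapyrrole synthesis in the dark. Seedlings of flu that build up protochlorophyllide in the dark release singlet oxygen in light, and loss of FC2 is likewise known for singlet oxygen from an accumulating porphyrin.

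The values are log2 signals, so a difference of 1 is a doubling. Errors of differences are standard errors (SE) from a model fitted over all 24 arrays, with n = 2 arrays in each group, and a gene was called when its p-value, adjusted over all 22217 probe sets, was under 0.05. Array medians lay between 5.98 and 6.23, and replicate arrays correlated at 0.991 to 0.999 over all probe sets. Precision depended on the number of arrays and on the spread between replicates (pooled SD 0.121 for CHIL and 0.326 for DFR). An array has no read depth. No probe set named FC1, FC2 or FLU alone, so the genotype labels were not checked at the mutated genes. Of the seed-maturation transcripts (4 of 4 measured), M10, M17 and PAP85 varied between replicates (pooled SD 0.703, 2.27 and 1.86), and the mean of all 4 per array ran from 5.29 to 9.62. This mean also differed between genotypes. In the dark it was 5.84 and 5.845 in fc2, 8.1425 and 7.355 in wt, 8.7125 and 8.48 in flu, and 8.3125 and 8.425 in fc1. There 0 of the 4 transcripts were called in fc2 against wt, beside 0.0360% of probe sets. OLEO3 had a pooled SD of 0.123 and moved with light, being lower at 120 min than in the dark in all 4 genotypes (-2.13 in wt, -1.38 in fc2, -2.88 in flu and -1.8 in fc1, each called). Of 4 root markers 2 were measured, EXPA7 and EXPA18. Because whole seedlings were used, fewer cells of a type and less RNA per cell cannot be told apart.

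CHIL separated the genotypes widely after 120 min of light. In wt its log2 signal was 7.16 and 7.04 in the dark, 7.89 and 7.52 at 30 min, and 10.1 and 10.14 at 120 min. In fc1 the arrays read 6.38 and 6.24, then 7.34 and 7.48, then 9.86 and 9.94. Both genotypes thus ended far above their dark arrays, with no overlap between times. In fc2 the signal was 7.64 and 7.53 in the dark, 7.34 and 7.48 at 30 min, and 8.51 and 8.54 at 120 min. In flu it went from 8.11 and 7.92 in the dark to 6.5 and 6.76 at 30 min and 6.15 and 6.03 at 120 min, the opposite order to wt, with no overlap between the times. The highest group mean was wt at 120 min (10.12) and the lowest was flu at 120 min (6.09), a range of 4.03 against a pooled replicate SD of 0.121. Within the order of the 12 means only wt at 30 min and fc2 in the dark, and fc2 and fc1 at 30 min, were neighbours with overlapping arrays.

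**Figure D1:**
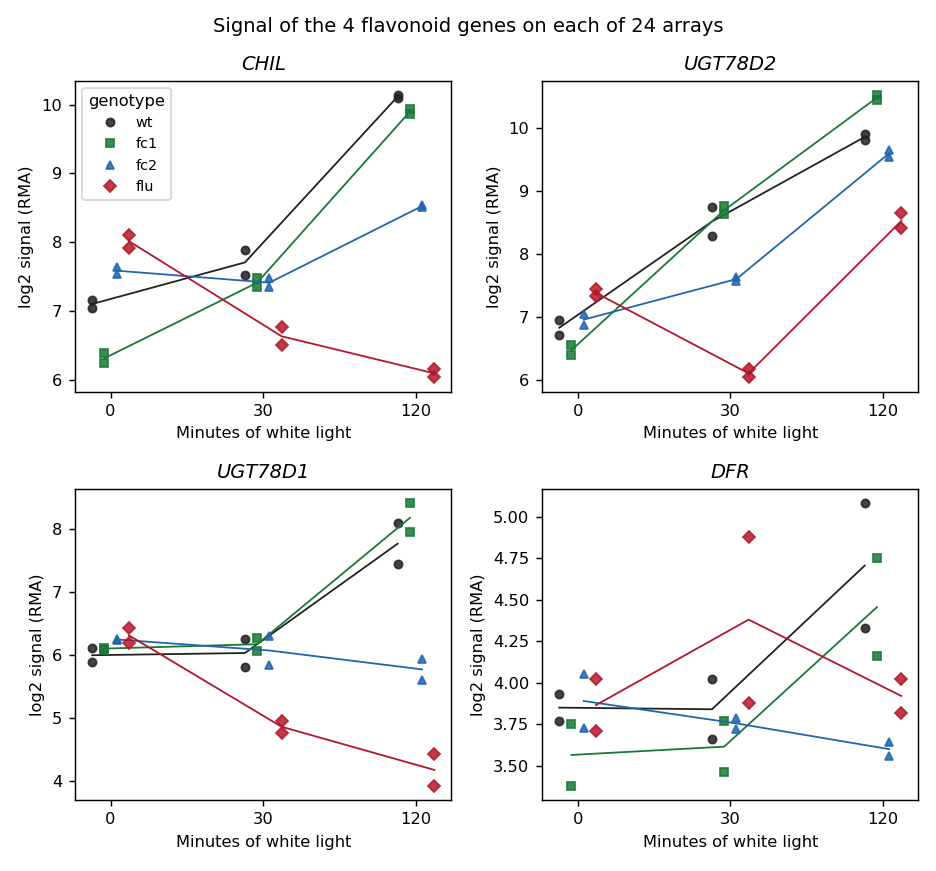
Log2 signal of CHIL, DFR, UGT78D1 and UGT78D2 against minutes of light in wt, fc2, flu and fc1, with the times evenly spaced, 1 point per array and a line through the mean of the 2 arrays of each group. At 120 min CHIL lay near 10 in wt (10.12) and fc1 (9.9), at 8.53 in fc2 and at 6.09 in flu, whereas the UGT78D2 mean of every genotype was above its dark mean.

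UGT78D2 was the one gene of the 4 with a higher signal at 120 min than in the dark in all 4 genotypes. Its wt arrays read 6.71 and 6.95 in the dark, 8.29 and 8.75 at 30 min, and 9.91 and 9.82 at 120 min. In fc1 they read 6.55 and 6.4, then 8.64 and 8.76, then 10.45 and 10.53, the highest of any group. The fc2 arrays climbed later, from 7.05 and 6.87 through 7.63 and 7.58 to 9.55 and 9.66. The flu arrays dipped and then recovered, from 7.44 and 7.33 in the dark to 6.04 and 6.17 at 30 min and 8.41 and 8.65 at 120 min. Its lowest group mean was flu at 30 min (6.11) and its highest fc1 at 120 min (10.49), a range of 4.39 against a pooled SD of 0.138. The means of fc1 at 30 min, flu at 120 min and wt at 30 min (8.7, 8.53 and 8.52) stood next to each other in the order with overlapping arrays, as did fc2 and wt in the dark (6.96 and 6.83).

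UGT78D1, the rhamnosyltransferase gene, stood high in wt and fc1 at 120 min and in no other group. In wt it read 5.88 and 6.1 in the dark, 5.8 and 6.25 at 30 min, and 8.09 and 7.43 at 120 min. In fc1 it read 6.08 and 6.11, then 6.06 and 6.27, then 7.94 and 8.4. Dark and 30 min arrays overlapped in wt and in fc1, and the 120 min arrays lay above both. In fc2 the arrays read 6.23 and 6.25, then 6.3 and 5.83, then 5.6 and 5.93, the 120 min arrays lying below the dark ones. In flu they read 6.19 and 6.42 in the dark, 4.76 and 4.95 at 30 min, and 4.42 and 3.92 at 120 min, the lowest of any group. The group means ran from 4.17 to 8.17 with a pooled SD of 0.259. Below wt and fc1 at 120 min, the next 8 means, from 6.31 in flu in the dark to 5.77 in fc2 at 120 min, overlapped from each to the next.

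DFR varied least and stood among the dimmest 40% of probe sets by mean signal. In wt its arrays read 3.77 and 3.93 in the dark, 4.02 and 3.66 at 30 min, and 4.33 and 5.08 at 120 min. In fc1 they read 3.38 and 3.75, then 3.77 and 3.46, then 4.16 and 4.75. The 120 min arrays of wt and of fc1 lay above those of earlier times, with a wide gap between replicates. In fc2 the arrays read 3.73 and 4.05, then 3.72 and 3.79, then 3.56 and 3.64. In flu they read 4.02 and 3.71, then 3.88 and 4.88, then 3.82 and 4.02. The 30 min replicates of flu were 1 log2 unit apart, the widest replicate gap of the gene. All neighbours in the order of its 12 group means, from 4.71 in wt at 120 min to 3.57 in fc1 in the dark, overlapped.

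The first question was how light acted on the genes in wt. After 30 min, 2 of the 4 genes had risen, against 3.57% of all probe sets. UGT78D2 rose by 1.69 ± 0.14 (3.23-fold, adjusted p = 1.12e-07) and CHIL by 0.61 ± 0.12 (1.52-fold, adjusted p = 0.0039). UGT78D1 and DFR had differences of 0.04 (95% interval -0.44 to 0.51) and -0.01 (-0.60 to 0.58). The CHIL call was lost without dark replicate 2 (0.55, adjusted p = 0.0607), without 30 min replicate 1 (0.42, adjusted p = 0.101), and when only wt arrays of these times were fitted (adjusted p = 0.119).

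After 120 min all 4 genes had risen in wt, against 11.9% of all probe sets, with a median change of 2.40 beside -0.03 over all probe sets. UGT78D2 was higher by 3.04 ± 0.14 (8.2-fold, adjusted p = 1.27e-11) and CHIL by 3.02 ± 0.12 (8.11-fold, adjusted p = 4.4e-12). UGT78D1 was higher by 1.77 ± 0.23 (3.41-fold, adjusted p = 7.69e-06) and DFR by 0.86 ± 0.28 (1.81-fold, adjusted p = 0.0263). From 30 to 120 min all 4 genes rose as well, against 11.3% of probe sets, CHIL by 2.42 ± 0.12, UGT78D1 by 1.74 ± 0.23, UGT78D2 by 1.35 ± 0.14 and DFR by 0.87 ± 0.28. UGT78D2 had therefore covered more of its final change in the first 30 min than CHIL had, a description that was not tested. The DFR rise over 120 min rested on single arrays: it was 0.48 (adjusted p = 0.319) without 120 min replicate 2, 0.78 (adjusted p = 0.135) without dark replicate 1 and 0.94 (adjusted p = 0.0658) without dark replicate 2, and it was not called with only these groups fitted (adjusted p = 0.0658). Its rise from 30 min was 0.49 without 120 min replicate 2 and 0.69 without 30 min replicate 2, neither called, and lost its call with array weights (adjusted p = 0.0893) and with only these groups fitted (adjusted p = 0.109). The seed-maturation mean was 5.5 on the wt 120 min array with the lower DFR signal and 7.88 on the other, and its part in the difference was not tested beyond the covariate model described with the scaling.

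The fc1 seedlings gave a light response with the same 4 genes called at 120 min. At 30 min UGT78D2 rose by 2.23 ± 0.14 (4.68-fold, adjusted p = 2.62e-09) and CHIL by 1.1 ± 0.12 (2.14-fold, adjusted p = 5.11e-06), so 2 of 4 genes rose against 3.68% of probe sets. UGT78D1 (0.07, 95% interval -0.41 to 0.55) and DFR (0.05, -0.54 to 0.64) were not called at that time. At 120 min all 4 had risen, against 15.3% of probe sets. The changes were 4.02 ± 0.14 for UGT78D2 (16.2-fold, adjusted p = 2.5e-13), 3.59 ± 0.12 for CHIL (12-fold, adjusted p = 3.1e-13), 2.08 ± 0.23 for UGT78D1 (4.21-fold, adjusted p = 8.81e-07) and 0.89 ± 0.28 for DFR (1.85-fold, adjusted p = 0.0189). Between 30 and 120 min the 4 genes rose by 0.84 (DFR) to 2.49 (CHIL), against 12.9% of probe sets. The DFR rise was again lost without 1 array, at 0.71 (adjusted p = 0.155) without dark replicate 1 and 0.60 (adjusted p = 0.219) without 120 min replicate 2, and from 30 min it was lost without either 30 min array (0.995 and 0.685) or without 120 min replicate 2 (0.545). Here the seed-maturation mean was 7.64 on the array with the lower DFR signal and 5.29 on the other, the reverse of wt.

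In fc2 UGT78D2 and CHIL rose, while UGT78D1 and DFR were not called at either time. At 30 min UGT78D2 alone rose, by 0.65 ± 0.14 (1.56-fold, adjusted p = 0.00855), so 1 of 4 genes rose against 1.92% of probe sets. The values of the others were -0.18 ± 0.12 for CHIL, -0.18 ± 0.23 for UGT78D1 and -0.14 ± 0.28 for DFR. At 120 min UGT78D2 had risen by 2.65 ± 0.14 (6.25-fold, adjusted p = 7.28e-11) and CHIL by 0.94 ± 0.12 (1.92-fold, adjusted p = 1.28e-05), 2 of 4 against 10.8% of probe sets. UGT78D1 had a difference of -0.48 (95% interval -0.95 to 0.00, adjusted p = 0.152), which was called lower with array weights (adjusted p = 0.0266) and in a fit of these fc2 arrays only (adjusted p = 0.0195). DFR stood at -0.29 (95% interval -0.88 to 0.30). From 30 to 120 min UGT78D2 rose by 2 ± 0.14 and CHIL by 1.12 ± 0.12, against 9.38% of probe sets, while UGT78D1 (-0.3 ± 0.23) and DFR (-0.16 ± 0.28) were not called. The 30 min rise of UGT78D2 lost its call without dark replicate 2 (0.56, adjusted p = 0.164) and without either 30 min array (0.62 and 0.67, adjusted p = 0.0891 and 0.0604).

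In flu CHIL and UGT78D1 were lower than in the dark at both times of light, and UGT78D2 was lower at 30 min and higher at 120 min. At 30 min 3 of 4 genes had fallen, against 23.8% of all probe sets: UGT78D1 by 1.45 (SE 0.23, adjusted p = 4.76e-05), CHIL by 1.39 (SE 0.12, adjusted p = 9.56e-08) and UGT78D2 by 1.28 on the log2 scale (SE 0.14, adjusted p = 6.17e-07). With the SD of signals on each array as a covariate, the UGT78D1 change was -0.88 (adjusted p = 0.017). DFR had a difference of 0.52 (95% interval -0.08 to 1.11, adjusted p = 0.141) that came from 1 array. With single arrays left out the value ran from 0.015 to 1.015. With reference-gene scaling it was 0.78 (adjusted p = 0.0291), and the lowest value among the other alternatives was -0.211. In the same comparison both measured root markers rose, EXPA7 by 0.63 (adjusted p = 0.0113) and EXPA18 by 0.56 (adjusted p = 0.0481), M10 rose by 1.73 (adjusted p = 0.0227), and OLEO3 fell by 1.59 on the log2 scale (adjusted p = 2.21e-08). EXPA7 read 5.38 and 4.98 in the dark, 5.98 and 5.64 at 30 min, and 5.83 and 6.21 at 120 min. The part of these markers in the flu changes was not tested beyond the seed-maturation covariate, which used the mean of the 4 seed transcripts.

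By 120 min in flu UGT78D1 had fallen by 2.14 (SE 0.23, 4.39-fold, adjusted p = 2.62e-07) and CHIL by 1.93 on the log2 scale (SE 0.12, 3.8-fold, adjusted p = 2.87e-10), 2 of 4 genes against 21.9% of probe sets. UGT78D2 had risen by 1.15 ± 0.14 (2.21-fold, adjusted p = 9.72e-07), 1 of 4 against 24.3%. DFR was at 0.06 (95% interval -0.54 to 0.65). EXPA7 was higher than in the dark by 0.54 in wt (adjusted p = 0.0385) and by 0.84 in flu (adjusted p = 0.00122), by limma. EXPA18 was not called in flu (0.3, adjusted p = 0.308). Between 30 and 120 min UGT78D2 turned and rose by 2.43 ± 0.14 (5.37-fold, adjusted p = 2.75e-10, 19.1% of probe sets higher). Over the same interval CHIL had a change of -0.54 ± 0.12 (adjusted p = 0.00226), UGT78D1 of -0.69 ± 0.23 (adjusted p = 0.025) and DFR of -0.46 ± 0.28 (adjusted p = 0.213), with 17.9% of probe sets called lower. With single arrays left out the DFR value ran from -0.96 to 0.04. The UGT78D1 step was lost without 30 min replicate 2 (-0.59, adjusted p = 0.142), without 120 min replicate 2 (-0.44, adjusted p = 0.235) and with array weights (adjusted p = 0.0721). The flu arrays of 30 min had a narrower distribution of signals (SD over probe sets 2.28 and 2.32) than the other 22 arrays (2.34 to 2.42), and with that SD as a covariate the CHIL step was -0.34 (adjusted p = 0.119) and the UGT78D1 step -1.19 (adjusted p = 0.00161).

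**Figure D2:**
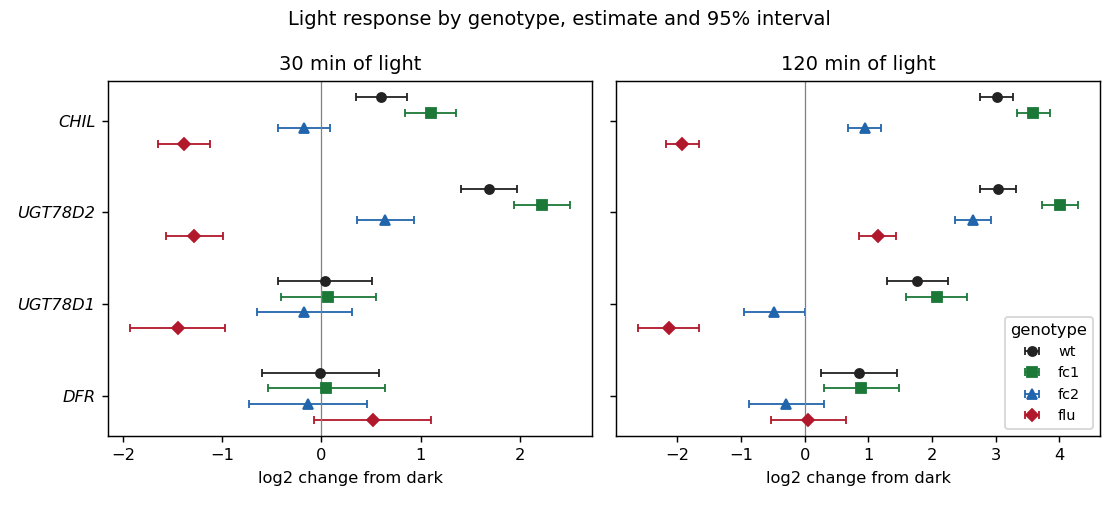
Change in log2 signal from the dark to 30 and 120 min of light for the 4 genes in each genotype. Bars are the unadjusted intervals of single contrasts from the model, as defined with the processing. At 120 min CHIL and UGT78D1 lay above 0 in wt (3.02 and 1.77) and fc1 (3.59 and 2.08) and below 0 in flu (-1.93 and -2.14), while UGT78D2 lay above 0 in all 4 genotypes.

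The next comparison set each mutant against wt at the same time. The comparisons share the wt arrays and are therefore not independent of each other. In the dark no gene was called in fc2, with 0 of 4 genes against 0.0360% of probe sets in either direction by limma. The unadjusted p of CHIL was under 0.05 there, at a difference of 0.49 ± 0.12 (adjusted p = 0.702), and with array weights CHIL was called (adjusted p = 0.0318). In flu in the dark CHIL was higher than in wt by 0.92 ± 0.12 (1.89-fold, adjusted p = 0.000296) and UGT78D2 by 0.56 ± 0.14 (adjusted p = 0.029), 2 of 4 against 1.62% of probe sets. In fc1 in the dark CHIL was lower, with a difference of -0.79 ± 0.12 (adjusted p = 0.00457), 1 of 4 against 1.43%. Leaving out any of the 4 dark arrays of flu and wt ended the UGT78D2 call in flu (0.44 to 0.68, adjusted p 0.0508 to 0.342), as did reference-gene scaling (0.48, adjusted p = 0.105) and a fit of these groups only (adjusted p = 0.12). The CHIL call in fc1 ended without wt replicate 1 (-0.73, adjusted p = 0.12) or fc1 replicate 2 (-0.72, adjusted p = 0.1). UGT78D2 in fc1 was at -0.36 (adjusted p = 0.138), called lower with reference-gene scaling (-0.58, adjusted p = 0.02) and with array weights (adjusted p = 0.033).

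At 30 min UGT78D2 was lower in fc2 than in wt, with a difference of -0.92 ± 0.14 (adjusted p = 0.000797), 1 of 4 genes against 0.986% of probe sets. Fitted on these 4 arrays alone it was not called (adjusted p = 0.0944). In flu UGT78D2 (-2.42 ± 0.14, 5.33-fold, adjusted p = 5.58e-10), UGT78D1 (-1.17 ± 0.23, adjusted p = 0.00052) and CHIL (-1.08 ± 0.12, adjusted p = 2.18e-06) were lower, 3 of 4 against 19.0%. DFR in flu had a difference of 0.54 ± 0.28 (adjusted p = 0.135), called higher with reference-gene scaling (0.80, adjusted p = 0.0274). With single arrays left out it ran from 0.04 to 1.04, and over the other alternatives from -0.227 to 0.802. The UGT78D1 difference in flu was -0.57 (adjusted p = 0.149) with the signal SD of each array as a covariate. EXPA7 was higher in flu than in wt at 30 min (0.6, adjusted p = 0.0182) and at 120 min (0.75, adjusted p = 0.00305). EXPA18 was called at neither time (means 5.6 against 5.26, then 5.34 against 5.145). OLEO3 was lower (-1.81 and -1.21, adjusted p = 6.2e-09 and 2.1e-07). The other seed-maturation transcripts had higher means in flu at both times. At 30 min M10 stood at 8.49 against 7.21, M17 at 9.735 against 8.78 and PAP85 at 10.115 against 8.61. At 120 min they stood at 8.195 against 6.605, 9.085 against 5.175 and 10.195 against 6.805. Of these 0 were called at 30 min and 1 at 120 min, against 21.4% and 28.4% of probe sets called higher. In fc1 0 of 4 genes were called by limma, against 18.4% of probe sets in either direction, with differences from -0.3 (CHIL, 95% interval -0.55 to -0.04) to 0.18 (UGT78D2, -0.10 to 0.46), and CHIL alone had an unadjusted p under 0.05. Without wt replicate 2 both of these were called, CHIL at -0.48 (adjusted p = 0.0151) and UGT78D2 at 0.41 (adjusted p = 0.039).

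At 120 min CHIL, UGT78D1 and DFR were lower in fc2 than in wt, 3 of 4 genes against 7.53% of probe sets. The differences were -2 ± 0.23 for UGT78D1 (3.99-fold, adjusted p = 5.53e-06), -1.6 ± 0.12 for CHIL (3.02-fold, adjusted p = 5.68e-08) and -1.11 ± 0.28 for DFR (2.15-fold, adjusted p = 0.01). UGT78D2 was not called in fc2, with a difference of -0.26 (95% interval -0.54 to 0.02, adjusted p = 0.219), but with reference-gene scaling it was (-0.45, adjusted p = 0.0402). In flu all 4 genes were lower than in wt, against 18.2% of probe sets. CHIL differed by -4.03 ± 0.12 (16.3-fold, adjusted p = 2.36e-14), UGT78D1 by -3.59 ± 0.23 (12-fold, adjusted p = 3.04e-10), UGT78D2 by -1.34 ± 0.14 (2.52-fold, adjusted p = 1.56e-07) and DFR by -0.79 ± 0.28 (1.72-fold, adjusted p = 0.028). In fc1 UGT78D2 was higher by 0.63 ± 0.14 (1.54-fold, adjusted p = 0.00842), 1 of 4 against 5.71%, and the other differences were -0.22 for CHIL, 0.41 for UGT78D1 and -0.25 for DFR.

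Several of these 120 min calls turned on 1 array. Without wt replicate 2, which had the higher DFR signal, the DFR difference was -0.73 in fc2 (adjusted p = 0.146) and -0.41 in flu (adjusted p = 0.331). The DFR call also ended without fc2 replicate 1 (-1.07, adjusted p = 0.0677) and without either flu array (-0.69 and -0.89, adjusted p = 0.136 and 0.0534), and in flu with array weights (adjusted p = 0.0671). The UGT78D2 excess in fc1 was not called without wt replicate 2 (0.58, adjusted p = 0.094) or fc1 replicate 2 (0.59, adjusted p = 0.0862), nor with reference-gene scaling (0.45, adjusted p = 0.0538) or only these groups fitted (adjusted p = 0.114). Without wt replicate 1 UGT78D1 in fc1 was called higher (0.74, adjusted p = 0.0448).

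**Figure D3:**
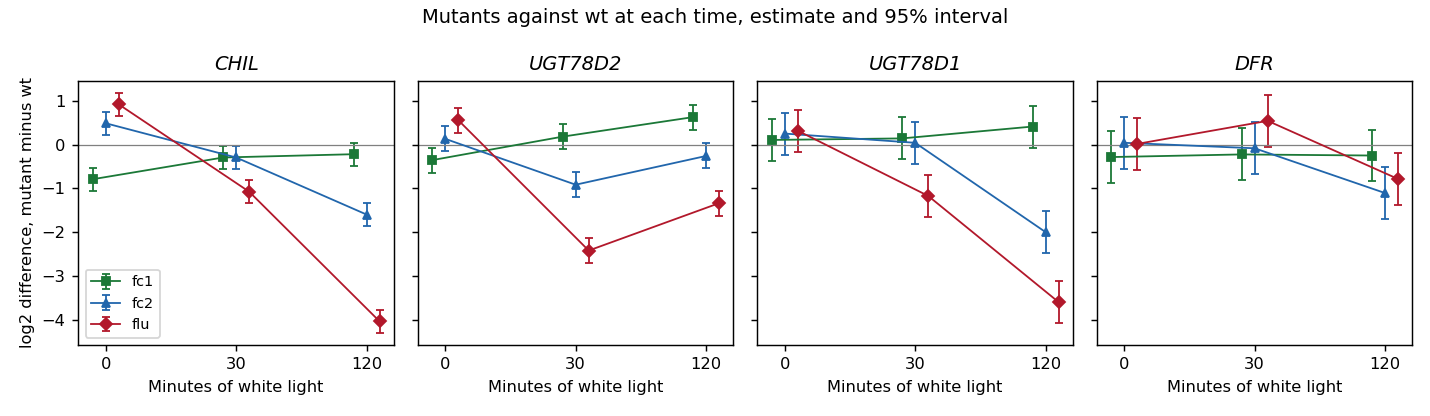
Difference in log2 signal from wt at 0, 30 and 120 min of light for the 4 genes in fc2, flu and fc1. Bars are the unadjusted intervals of single contrasts from the model, as defined with the processing. At 120 min all 4 genes lay below 0 in flu, from -4.03 (CHIL) to -0.79 (DFR), and CHIL, UGT78D1 and DFR did in fc2.

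Whether a mutant responded to light differently from wt was tested as the difference between the 2 light responses. At 30 min the response of UGT78D2 was smaller in fc2 than in wt by 1.05 log2 units (difference -1.05 ± 0.19, adjusted p = 0.0144), 1 of 4 genes against 0.261% of probe sets. The corresponding value for CHIL was -0.78 ± 0.17 (adjusted p = 0.0634). In flu the responses of UGT78D2 (-2.97 ± 0.19, adjusted p = 1.72e-08), CHIL (-1.99 ± 0.17, adjusted p = 4.06e-07) and UGT78D1 (-1.49 ± 0.32, adjusted p = 0.00205) differed from wt, 3 of 4 against 14.0%. With the signal SD of each array as a covariate the UGT78D1 value was -0.95 (adjusted p = 0.0405). In fc1 0 of 4 responses were called by limma, against 0.189% of probe sets in either direction, although the unadjusted p of CHIL (0.5 ± 0.17) and of UGT78D2 (0.54 ± 0.19) was under 0.05. The fc2 value for UGT78D2 lost its call when any of 5 single arrays was left out (-1.07 to -0.82). The CHIL value gained one with array weights (adjusted p = 0.0185), with trend and robust moderation (adjusted p = 0.0307) and without wt 30 min replicate 2 (-0.97, adjusted p = 0.0186).

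At 120 min the responses of CHIL (-2.08 ± 0.17, adjusted p = 5.17e-07) and UGT78D1 (-2.25 ± 0.32, adjusted p = 0.000161) were smaller in fc2 than in wt, 2 of 4 genes against 4.45% of probe sets. UGT78D2 differed by -0.39 (95% interval -0.79 to 0.01, adjusted p = 0.257). DFR differed by -1.15 ± 0.4 (adjusted p = 0.0849), which passed with array weights (adjusted p = 0.0429). With single arrays left out the DFR value ran from -1.52 to -0.77. In flu CHIL (-4.95 ± 0.17, adjusted p = 1.8e-12), UGT78D1 (-3.91 ± 0.32, adjusted p = 2.15e-08) and UGT78D2 (-1.89 ± 0.19, adjusted p = 2.76e-07) differed from wt, 3 of 4 against 15.3%. DFR in flu had a value of -0.8 ± 0.4 (adjusted p = 0.13), and of -1.175 to -0.425 with single arrays left out. In fc1 the response of UGT78D2 was larger by 0.98 ± 0.19 (adjusted p = 0.0136), 1 of 4 against 0.698%, and CHIL had a value of 0.57 ± 0.17 (adjusted p = 0.161). That UGT78D2 call ended without wt dark replicate 2, fc1 dark replicate 2, wt 120 min replicate 2 or fc1 120 min replicate 2 (0.86 to 0.94).

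The fc2 and flu mutants were also compared directly. In the dark 0 of 4 genes were called by limma, against 2.31% of probe sets in either direction, and the unadjusted p of CHIL (-0.43 ± 0.12) and of UGT78D2 (-0.43 ± 0.14) was under 0.05. With array weights both were called (adjusted p = 0.0171 and 0.0334). At 30 min UGT78D2 (1.5 ± 0.14), UGT78D1 (1.21 ± 0.23) and CHIL (0.78 ± 0.12) were higher in fc2 than in flu, 3 of 4 against 22.5%. The CHIL value was 0.52 with reference-gene scaling (adjusted p = 0.0084). At 120 min CHIL (2.44 ± 0.12, 5.41-fold, adjusted p = 2.88e-11), UGT78D1 (1.6 ± 0.23, adjusted p = 1.78e-05) and UGT78D2 (1.08 ± 0.14, adjusted p = 4.14e-06) were higher in fc2, 3 of 4 against 16.0%. DFR had values of -0.63 ± 0.28 at 30 min (adjusted p = 0.0751) and -0.32 ± 0.28 at 120 min (adjusted p = 0.422). The 30 min DFR value was called with median scaling (-0.79, adjusted p = 0.0331) and with reference-gene scaling (-0.89, adjusted p = 0.0147). With single arrays left out it ran from -1.125 to -0.125, and over the other alternatives from -0.888 to 0.241. The UGT78D1 call of 30 min ended with the signal SD as a covariate (0.53, adjusted p = 0.23).

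The 4 genes were not equally alike in pattern over the 12 group means, which share the 24 arrays. Pearson's r was 0.863 between CHIL and UGT78D1, 0.765 between CHIL and UGT78D2, and 0.535 between the 2 glycosyltransferase genes. With DFR, whose range was small beside its replicate spread, r was 0.583 for CHIL, 0.448 for UGT78D1 and 0.329 for UGT78D2. These values describe the group means and carry no test.

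Among the pathway genes outside the 4, few had a probe set of their own on the platform annotation. None of 8 phenylpropanoid genes was measured, 1 of 8 further flavonoid enzymes (BAN, anthocyanidin reductase, which makes seed-coat tannin precursors), 6 of 13 genes on the list of enzymes that decorate flavonoids, 1 of 22 regulators (AT1G23390) and 1 of 17 light-signalling genes (HYH, a close homologue of the light-signalling transcription factor HY5). The decoration list held UF3GT, an anthocyanin 3-O-glucoside xylosyltransferase gene, AT5MAT, an anthocyanin malonyltransferase gene, and UGT78D3. It also held the loci AT4G14090, AT5G17040 and AT1G06000, for which the annotation used here gave no name.

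Of the 6 measured decoration genes, 1 had risen in wt at 30 min and 4 at 120 min, with a median change of 0.94 at 120 min. In fc1 the counts were 1 and 4, in fc2 1 and 1, and in flu 0 and 1, with 1 fall in flu at 120 min. Of all probe sets, 3.57% and 11.9% were called higher at 30 and 120 min in wt, 3.68% and 15.3% in fc1, and 1.92% and 10.8% in fc2. In flu 24.2% and 24.3% were called higher, and 21.9% were called lower at 120 min. AT1G06000 was the gene that rose at 120 min in all 4 genotypes, by 3 in wt (adjusted p = 3.29e-13), 3.44 in fc1, 2.57 in fc2 and 1.95 in flu. Its arrays read 7.97 and 7.9 in the wt dark and 10.86 and 11 at 120 min, and 8.25 and 8.42 against 10.2 and 10.37 in flu. Over the 12 group means its r with UGT78D2 was 0.95, with UGT78D1 0.368.

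UF3GT, AT4G14090 and AT5MAT rose at 120 min in wt and fc1 and were not called in fc2 or flu. UF3GT read 5.47 and 5.69 in the wt dark and 7.29 and 8.19 at 120 min, a change of 2.16 (adjusted p = 1.57e-06), and its change was 1.85 in fc1 (adjusted p = 7.98e-06), 0.12 in fc2 and -0.11 in flu. AT4G14090 changed by 1.04 in wt, 1.07 in fc1, 0.14 in fc2 and -0.13 in flu, and AT5MAT by 0.85, 0.87, 0.06 and 0.21. The wt 120 min replicate with the higher DFR signal also had the higher UF3GT, AT4G14090 (5.04 and 5.67) and AT5MAT (5.05 and 5.35) signals. The response of UF3GT differed from wt in fc2 (-2.05, adjusted p = 0.000713) and flu (-2.27, adjusted p = 3.21e-05), as did that of AT4G14090 (-0.9 and -1.16, adjusted p = 0.036 and 0.00138). For AT5MAT the differences were -0.8 (adjusted p = 0.0651) and -0.64 (adjusted p = 0.0606). Over the 12 group means DFR had r of 0.908 with AT5MAT, 0.857 with AT4G14090 and 0.844 with UF3GT.

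UGT78D3 and AT5G17040, which precede UGT78D2 on the chromosome in the TAIR10.1 annotation with AT5G17040 in between, kept nearly flat signals. UGT78D3 arrays lay between 3.59 and 4.25 and AT5G17040 arrays between 3.97 and 4.38 in all 24 libraries. UGT78D3 passed the test in none of the 8 light responses against the dark by limma, and AT5G17040 in 1, flu at 120 min (-0.27, adjusted p = 0.0408). BAN lay between 3.21 and 3.92 and rose in wt at 120 min by 0.35 (adjusted p = 0.0344). AT1G23390 was lower at 120 min than in the dark in wt (-0.67, adjusted p = 0.00112), fc1 (-0.69, adjusted p = 0.00073) and flu (-0.39, adjusted p = 0.0295) and was not called in fc2 (-0.1).

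HYH and CHIL had calls of the same direction at 120 min against the dark in all 4 genotypes. From 30 to 120 min in flu their calls were opposite by limma, HYH at 0.825 (adjusted p = 0.00305) and CHIL at -0.54 (adjusted p = 0.00226). At 30 min in wt CHIL was called and HYH was not (0.335, adjusted p = 0.437). In wt HYH read 7.59 and 7.72 in the dark and 9.51 and 8.86 at 120 min, a rise of 1.53 (adjusted p = 7.25e-06). It rose by 2.35 in fc1 and by 1.02 in fc2, and in flu it fell by 1.79 on the log2 scale at 30 min and by 0.97 at 120 min (adjusted p = 9.14e-07 and 0.000437). The flu arrays went from 7.62 and 7.83 in the dark to 6.16 and 5.71 at 30 min and 6.69 and 6.83 at 120 min. The response differed from wt in flu at 120 min (-2.5, adjusted p = 8.78e-07) and was not called different in fc2 (-0.52, adjusted p = 0.315). Over the 12 group means r of HYH was 0.889 with CHIL, 0.846 with UGT78D1, 0.835 with UGT78D2 and 0.23 with DFR.

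**Figure D4:**
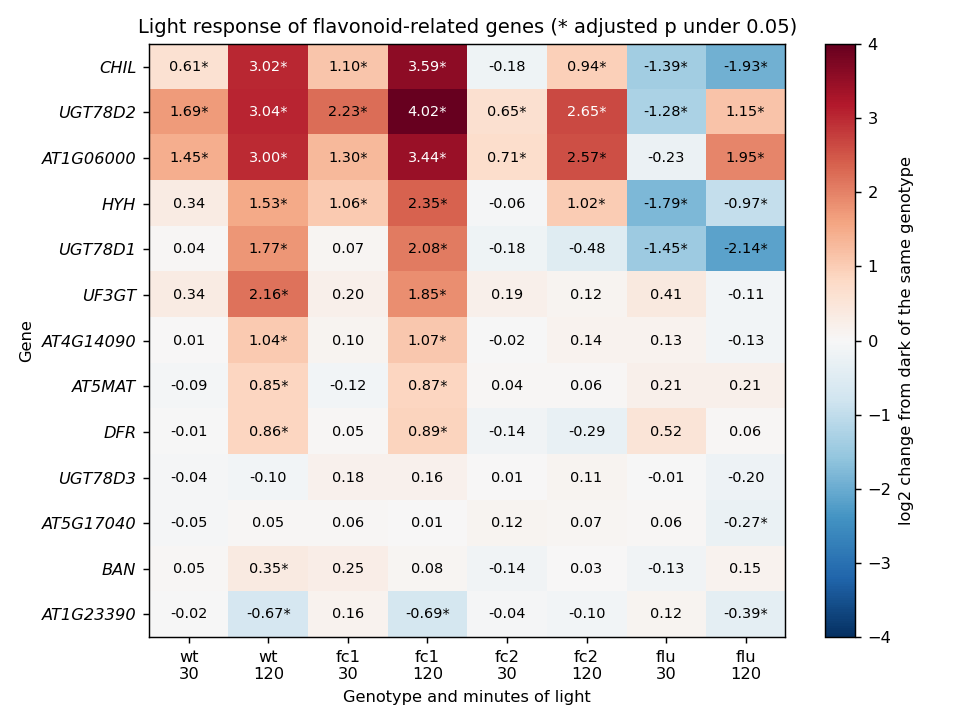
Change in log2 signal from the dark at 30 and 120 min of light in each genotype for the 4 genes and the other measured pathway genes, with the colour and the number in each cell giving the change and an asterisk a call. At 120 min AT1G06000 was above 0 in every genotype (1.95 to 3.44), whereas UF3GT was 2.16 in wt, 1.85 in fc1 and near 0 in fc2 (0.12) and flu (-0.11).

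**Figure D5:**
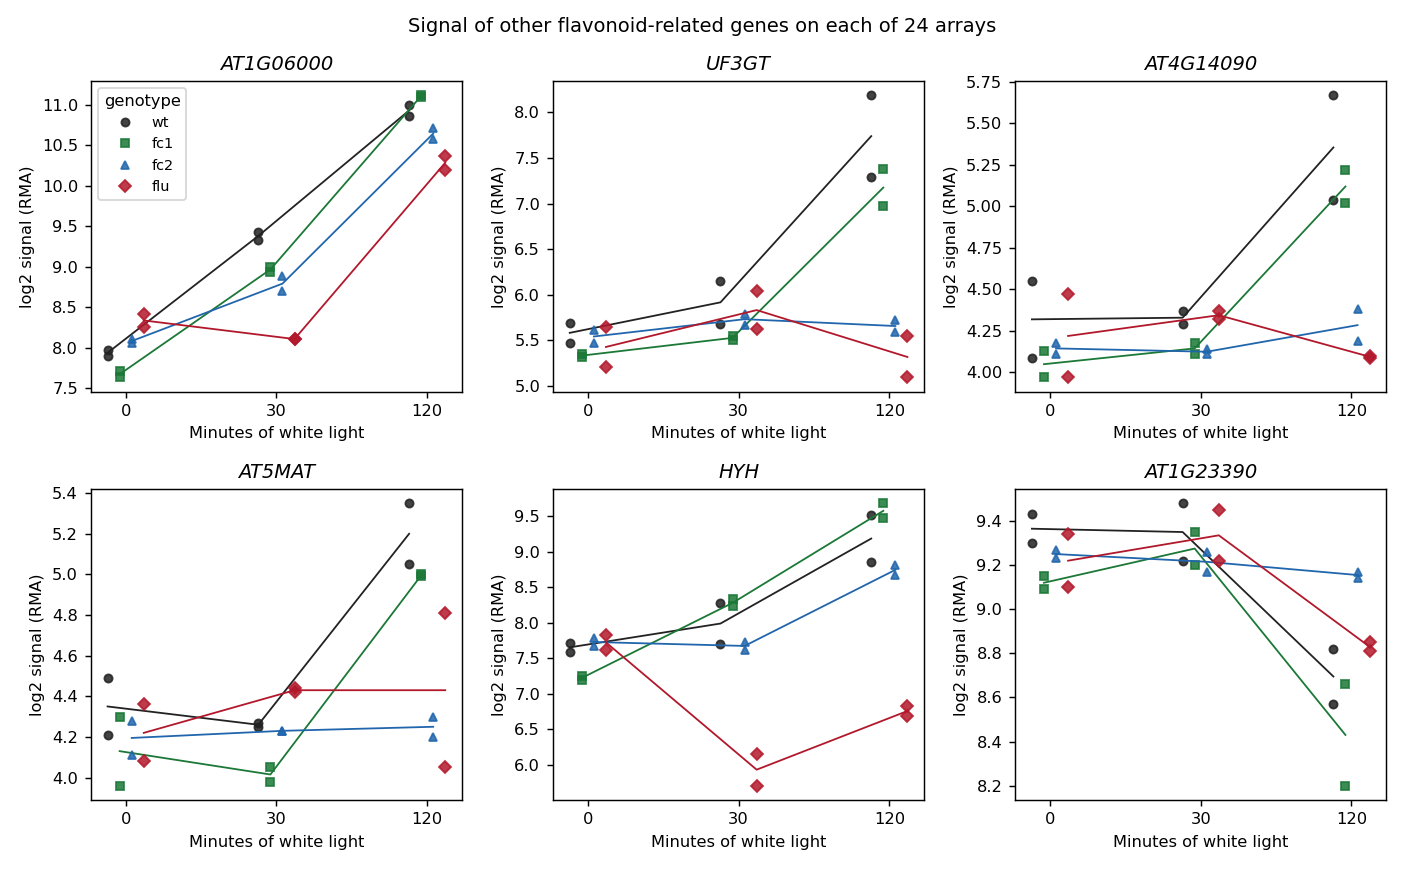
Log2 signal of pathway genes against minutes of light in wt, fc2, flu and fc1, with the times evenly spaced, 1 point per array and lines through group means. HYH ended at 9.51 and 8.86 in wt and at 6.69 and 6.83 in flu, and AT1G06000 was above 10 at 120 min in every array.

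All 30 contrasts were also computed under other scalings. Scaling to the genes AT4G34270 and AT2G28390 moved the median change of all probe sets by over 0.1 in 16 contrasts, for instance from 0.06 to 0.33 for flu at 30 min and from -0.03 to 0.18 for wt at 120 min, and member changes shift by the same amount. AT2G28390 was itself called lower than in the dark by limma in flu, at 30 min (-0.39, adjusted p = 0.0044) and 120 min (-0.255, adjusted p = 0.0496). In fc1 it was called lower at 120 min (-0.375, adjusted p = 0.0075). From 30 to 120 min it was called lower in wt (-0.35, adjusted p = 0.0151) and fc1 (-0.285, adjusted p = 0.0473). At 30 min it was called lower in flu than in wt (means 7.225 and 7.795). AT4G34270 was not called against the dark, but it was called higher in flu than in wt at 120 min (means 7.87 and 7.52). Values with reference-gene scaling therefore hold these changes of both genes. None of the 120 changes of the 4 genes that could be tested turned its direction while called under any scaling or model. With the seed-maturation mean of each array as a covariate all 120 calls were unchanged.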

How the data were processed

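Biotin-labelled cRNA of 24 seedling samples was hybridised to Affymetrix arrays, per the labels' protocols. The authors deposited log2 signals made with RMA, per the submitters' processing notes; its version is not given in the sources used here. They were used as deposited. The platform table gave 1 gene to 13171 probe sets, several to 482 and none to 8564, and symbols were matched through the TAIR10.1 gene table, used for names only.

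In limma 3.58.1, run in R 4.3.3, 1 mean per group was fitted over the 24 arrays and variances were moderated with eBayes. Two-sided p-values were adjusted by Benjamini-Hochberg over 22217 probe sets in each of 30 contrasts. Intervals are 95% intervals of single contrasts, not adjusted. On simulated data for wt at 120 min against the dark, 90% of changes of 1 and 99% of changes of 2 on the log2 scale were recovered. There were 14 false calls. The simulation changed 200 probe sets and gave each probe set the same SD in all groups. In the data 6828 were called in that comparison, so the rates hold for the simulated setting only. Tables and plots used Python 3.11.15, pandas 2.3.3 and matplotlib 3.10.9.

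The genes named are the 4 genes, all measured genes of the pathway lists, and for each of the 4 the 3 single-gene probe sets most alike over the group means, among those with an SD of at least 0.3. Genes and lists were chosen with earlier results of these data known. Alternatives were other scalings, a filter on dim probe sets, trend and robust moderation, narrower fits, array weights, a replicate block, a seed-maturation covariate and each array left out. The array weights were equal for the 2 arrays of each group, from 0.492 (wt at 120 min) to 2.498 (fc2 in the dark). They therefore weighted whole groups and could not lower the weight of a single array. The SD of each array as a covariate was added after seeing the data. The labels call the replicates biological but do not name separate cultures, so p-values measure the spread between these samples.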

Additional observations from a re-analysis of the deposited data

Results flagged for a closer look

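The light response of a mutant differed from that of wt, by a test of the difference itself, in 10 cases among the 4 genes (difference in log2 change, mutant minus wt, limma, n = 2 arrays per group). In flu at 120 min the values were -4.95 for CHIL, -3.91 for UGT78D1 and -1.89 for UGT78D2, and at 30 min they were -1.99, -1.49 and -2.97, respectively. At 120 min both flu arrays of CHIL and of UGT78D1 lay below both dark flu arrays, while both wt arrays lay above both dark wt arrays. In fc2 CHIL and UGT78D1 had values of -2.08 and -2.25 at 120 min, and UGT78D2 of -1.05 at 30 min. In fc1 UGT78D2 had a value of 0.98 at 120 min, the one positive difference. All 10 share the wt arrays.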

How the results depend on the processing

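Of 120 results (4 genes in 30 contrasts), 65 were called, and 47 of these kept their call under all 34 alternatives. No result reversed. Quantile normalization, the seed-maturation covariate and the replicate block changed none of the 120 calls. The replicate numbers do not pair the samples: deviations of same-numbered arrays correlated at -0.536 to 0.4 (median -0.008, 66 pairs of groups). Other alternatives moved calls of single genes: 1 with median scaling, 1 with trend and robust moderation, 7 with reference genes, 8 with only the groups compared, 10 with array weights and 5 with the array SD. Without the dimmest 40% of probe sets, 88 of 90 calls held and DFR dropped out, so no count over 4 genes exists there. Each of the 4 genes had 1 probe set, so a mean over probe sets was not run.

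Counts of the 4 genes called moved as follows, and the cause was not tested. Leaving out 1 array gave 1 to 2 for wt at 30 min (2 in the full fit), 0 to 1 for fc2 at 30 min (1), 1 to 2 for flu in the dark against wt (2), 0 to 1 for fc1 in the dark (1), 0 to 2 for fc1 at 30 min (0) and 0 to 2 for fc1 at 120 min (1) against wt. It gave 0 to 2 for the response of fc2 at 30 min (1), 0 to 1 for that of fc1 at 120 min (1) and 0 to 1 for fc2 against flu in the dark (0). Fitting only the groups compared gave 1 for wt at 30 min, 1 for flu in the dark, and 0 for fc2 at 30 min, fc1 at 120 min and the response of fc2 at 30 min. Reference genes gave 1 for flu and 2 for fc1 in the dark, and 0 for fc1 at 120 min. Array weights gave 1 for fc2 and 2 for fc1 in the dark, and 2 for both the response of fc2 at 30 min and fc2 against flu in the dark. Trend and robust moderation, and the array SD, each gave 2 for that response of fc2.

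Counts over all probe sets moved by over 1.5 times in 17 of 30 contrasts with 1 array left out, 14 with only the groups compared, 8 each with array weights and the array SD, and 1 to 3 with 4 other settings. Examples are fc1 against wt in the dark (608, 3914 with reference genes, 3890 with array weights, 7 to 1242 with 1 array left out), fc1 against wt at 30 min (4091, 100 with only the groups compared, 240 to 5417 with 1 array left out) and flu against wt at 30 min (8983, 4802 with the array SD). DFR was dim, and no detection calls were used, which limits what its values show.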

Other observations

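Genes with a pattern most like each of the 4, by Pearson's r over the 12 group means among 4167 single-gene probe sets, were mostly loci without a symbol in the annotation. For CHIL they were AT3G21670 (0.98), AT1G19140 (0.975) and AT1G44000 (0.972), and for UGT78D2 AT5G63380 (0.977), AT2G46420 (0.975) and AT3G56290 (0.972). For UGT78D1 they were AT4G13220 (0.988), AT1G15290 (0.984) and AT3G05180 (0.982). DFR had lower values, with GIS (a trichome regulator, 0.927), AT5MAT (0.908) and AT1G13650 (0.884). For the mean of the 4 genes they were AT3G24190 (0.986), AT3G01060 (0.986) and AT2G37240 (0.985). The points share the 24 arrays, and these values are a description with no test.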
